A study of Homo sapiens with 14 samples.

Results

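The sites described here are adenosines of polyadenylated RNA that were read as m6A almost completely in every one of 6 cancer cell lines. They were chosen by their own values: at least 20 reads and an m6A level of at least 90% in each of the 12 libraries made from cells given DMSO, the solvent control. That rule was met by 1983 sites of the 407343 unique sites listed, or 2.88% of the 68873 sites with 20 or more reads in all 12 libraries, which are called covered sites below. Levels with DMSO are therefore a description of the choice and carry no test. The STM3675 libraries took no part in the choice. The deposited list holds only sites that reached its own limits on reads and m6A level in some line. Shares of covered sites are therefore shares of such listed sites, not of all adenosines with reads.

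The compared groups had 2 libraries each and 14 libraries in all. CAOV3 cells, an ovarian carcinoma line, received 1 uM STM3675 for 24 h, and their controls received DMSO for 24 h. DMSO libraries were also made from A549 (lung carcinoma), OE21 (oesophageal carcinoma) and the ovarian carcinoma lines COV644, EFO21 and SKOV3. No other line was given STM3675, each group is 1 established line, and no line carries an engineered allele according to the labels. The labels do not say whether libraries of a pair came from separate cultures, so errors cover the spread between libraries, which may be technical.

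N6-methyladenosine (m6A) is placed on nuclear RNA by a methyltransferase complex whose catalytic subunit is METTL3, the enzyme the series addresses with STM3675. The complex acts mostly within the DRACH context (D is A, G or T; R is A or G; H is A, C or T), of which GGACT is the best known form. m6A of human mRNA is concentrated in long internal exons and in last exons, around stop codons and in 3′ untranslated regions, and it is scarce close to splice junctions, where exon junction complexes keep the methyltransferase away. YTH proteins read the mark, and one of its best described effects is faster decay of the mRNA. In the GLORI assay, glyoxal and nitrite turn unmethylated adenosine into inosine, which is read as G, and m6A stays A. A site's level is given as 100 times its A reads over its A and G reads.

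Total A and G reads at the listed sites lay between 14047302 and 28663588 per library, and between 335016 and 772170 at the nearly complete sites. The lowest read number of a site over the 12 DMSO libraries had a median of 51, with quartiles of 31 and 92. Read numbers rose to 10040 and no further, and the site in CALR lay close to that value, so its true depth may be larger. As a check of the line names, TP63 and KRT5, markers of squamous epithelium, had medians of 992.5 and 5221.5 reads per listed site in OE21 and at most 8 and 77.8 in the other lines. The lung and ovarian markers did not all follow the labels. NKX2-1, of lung, stood at 0.5 reads in A549, against 39.5 in COV644 and 20 in OE21. WT1, of ovary, stood at 32.5 in A549 and at most 5 in the 4 ovarian lines, and PAX8, of ovary, at 51.5 in SKOV3, 31 in EFO21, 12.5 in CAOV3 and 2.5 in COV644, against 2.5 in OE21 and 0.5 in A549.

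The sequences below show the measured adenosine, as a capital letter, with the 2 bases on either side, 5′ to 3′ on the strand of the RNA, from the deposited table; positions are on GRCh38, the build named in the submitters' processing notes. The first 4 are among the sites in named genes that kept the most m6A with STM3675 and the next 4 among those that kept the least. They are shown because the same few contexts, ggAct and gaAct among them, occur at both ends.
SLC33A1, chr3:155853540-155853544, minus strand: ggAct
SEPHS2, chr16:30444186-30444190, minus strand: gaAct
PANX1, chr11:94181320-94181324, plus strand: agAct
OTUD1, chr10:23440745-23440749, plus strand: ggAca
RAB23, chr6:57190261-57190265, minus strand: ggAct
HSPA5, chr9:125236517-125236521, minus strand: gaAct
HADH, chr4:108034819-108034823, plus strand: gaAca
ZBTB14, chr18:5291840-5291844, minus strand: aaAct
The next 3 are nearly complete sites whose 5 bases fall outside DRACH.
RAB8A, chr19:16133153-16133157, plus strand: ggAcg
RELA, chr11:65654306-65654310, minus strand: ggAtt
F2RL1, chr5:76833084-76833088, plus strand: gtAct
The last 3 are stretches whose adenosines stayed at or near 100% with STM3675, the first of them with 2 measured adenosines 4 nt apart and the second with 2 measured adenosines 3 nt apart.
Chromosome 1, chr1:220630209-220630217, plus strand: tcAcacAgc
Chromosome 2, chr2:10590965-10590972, plus strand: agActAct
Chromosome 3, chr3:64101577-64101581, plus strand: aaAcc

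Across the 12 DMSO libraries the chosen sites averaged between 96.2% and 97.8%. Group means over 2 libraries were 97.7% ± 0.161 (SD) in CAOV3, 97.3% ± 0.0891 in EFO21, 97.2% ± 0.876 in COV644, 97.1% ± 0.0714 in SKOV3, 96.6% ± 0.0961 in A549 and 96.3% ± 0.115 in OE21. The 2 COV644 libraries stood 1.24 points apart, at 96.5% and 97.8%, against 1.38 points between the highest and the lowest line; the order of the lines is not read further. Just inside the threshold, the lowest of the 12 values was 90% at sites of MED18, ADGRL2 and MASTL; just outside it was 89.9% at sites of RCOR1, EML4 and GTPBP2.

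To see how far the level of a line followed from the other lines, each line was held out of the rule in turn, and the sites at 90% or more in the 10 libraries of the other 5 lines were read in the line held out. In CAOV3, 1983 of the 2030 such sites with 20 reads (97.7%) were at 90% or more in both libraries, with a mean of 97.6% ± 0.177 (SD, n = 2). The same share was 96.6% in COV644, 96.5% in EFO21, 94.4% in SKOV3, 94.2% in A549 and 89.1% in OE21, with means between 95.6% in OE21 and 97.1% in EFO21. No site fell under 50% in the line held out. Only 5 sites averaged under 80%: 2 in A549, 2 in OE21 and 1 in SKOV3.

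The lowest of these was in PINK1, which encodes a mitochondrial kinase that triggers removal of damaged mitochondria; it is named after its values were seen. The site, at position 20650726 of chromosome 1 in the last exon, had 60.5% and 53.3% in the 2 A549 libraries, from 172 and 180 reads. In the other 10 DMSO libraries it lay between 90.5% and 95.2%, so the A549 values were below all others. The lowest site of OE21 was in NIPBL, the loader of cohesin, at 81.7% and 75.7%, against 90.4% to 96.9% in the other lines. In SKOV3 the lowest site, in the aminotransferase gene GOT1, rested on 58 and 25 reads, with levels of 89.7% and 68% that were themselves far apart.

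**Figure D1:**
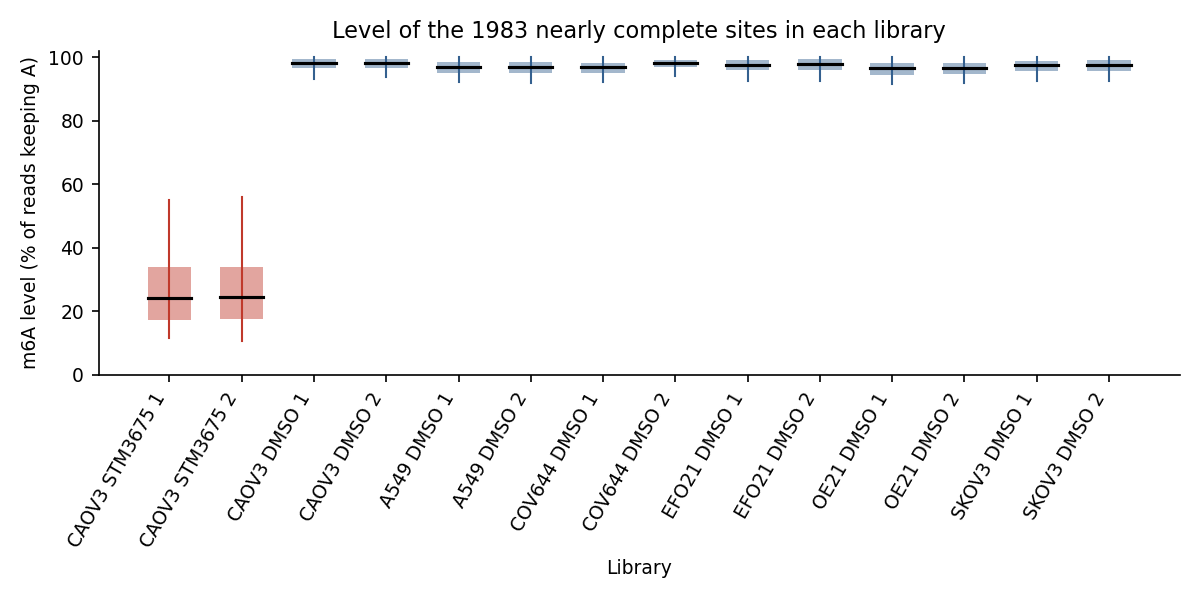
m6A level of the 1983 nearly complete sites (vertical axis, % of reads keeping A) in each of the 14 libraries (horizontal axis). Boxes run between the quartiles over sites, black lines are medians and thin lines run between the 5th and 95th percentiles; STM3675 libraries are red with medians of 24.1% and 24.5%, and every DMSO median is above 96%, as the rule requires high values there.

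Nearly all of the sites were in DRACH. The share was 98.03% (1944 of 1983), against 97.6% of the 2358 covered sites whose lowest DMSO level was 80% to under 90%, called the next class below, and 56.1% of all covered sites. GGACT alone made up 803 sites (40.5%), against 32.1% of the next class and 17.7% of covered DRACH sites. GAACT followed with 352 sites, AGACT with 281, GGACA with 246 and TGACT with 124, and these 5 contexts held all but 177 of the 1983 sites. No test was made of these shares, since the sites were chosen on their level.

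Read the other way, 11.7% of covered, and so listed, GGACT sites were nearly complete in all lines. The share was 6.93% for GAACT, 5.66% for GGACA, 5.62% for AGACT, 2.94% for TGACT, 2.13% for GGACC and 1.58% for AAACT. It was at most 1.14% for each of the other DRACH contexts, and 0 of 789 AGACC, 0 of 677 GAACC, 0 of 90 TAACA and 0 of 18 TAACC sites qualified. A T after the measured AC thus stood in 5 of the 7 DRACH contexts with the highest shares. GGACG, which has G where DRACH allows A, C or T, gave 21 of 857 covered sites (2.45%), a higher share than in 13 of the 18 DRACH contexts.

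The 39 sites outside DRACH were mostly close relatives of it: 21 GGACG, 7 GTACT and 3 GGATT sites, and 8 sites in 6 other contexts. The deepest of them was in RAB8A, a small GTPase of vesicle traffic, where STM3675 left 19.5% and 17.5% from 1690 and 1455 reads, against 97.6% and 98.7% with DMSO. The GGACG site of RRAGA, a GTPase that brings nutrient signals to mTORC1, kept 15.4% and 13.8%, against 97.6% and 99.3%. In RELA, the p65 subunit of NF-kB, the GGATT site kept 17.0% and 18.0%, against 97.8% and 97.0%. TENT4A, a non-canonical poly(A) polymerase, kept more, 41.0% and 42.3%, against 97.1% in each DMSO library. In each of these 4 the STM3675 and DMSO values were far from overlapping.

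Of the 1983 sites, 1489 (75.1%) lay in last exons, 242 (12.2%) in internal exons, 158 (7.97%) in genes of a single exon and 30 (1.51%) in first exons, as the table annotates them, and 64 had no gene there. Of covered DRACH sites, 69.0% were in last exons, 21.4% in internal exons, 2.65% in single-exon genes and 2.04% in first exons. Of the next class, 69.97% were in last exons, 20.1% in internal exons, 4.37% in single-exon genes and 2.08% in first exons. Single-exon genes, which have no splice junction, stood out: 14.97% of their 1022 covered DRACH sites were nearly complete, against 5.48% of 26659 in last exons, 3.81% of 787 in first exons and 2.89% of 8277 in internal exons. The order held for GGACT alone, with 37.0% (61 of 165) in single-exon genes, 13.0% in last exons, 8.61% in first exons and 6.86% in internal exons. No test of these shares over genes was made.

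Sites of internal and first exons lay farther from splice junctions than covered DRACH sites there. In internal exons the nearly complete sites lay a median of 266 nt from the nearer exon end (quartiles 178 and 401), against 99 nt (45 and 235) for covered DRACH sites. Only 10 of 239 (4.18%) were within 100 nt of an exon end, against 50.5% of covered DRACH sites, and 1 of the 2254 covered DRACH sites under 50 nt from an exon end was nearly complete. Their exons were long, with a median of 938 nt against 423 nt, and 97.9% lay in exons over 400 nt against 51.1%. DRACH sites of the next class shared most of this, with a median distance of 231.5 nt and 9.27% within 100 nt. The median width of their exons was 827.5 nt, and 95.5% lay in exons over 400 nt. In first exons the median distance to the exon end was 521 nt for the 30 nearly complete sites, against 208 nt, and 0 of 30 were within 100 nt of it, against 28.6%. The next class lay between, with 344.5 nt and 8.70%.

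In last exons the DRACH sites lay a median of 436 nt from the exon start (quartiles 273 and 823.5), against 495 nt (237 and 1149), so their median lay nearer the junction, although 2.05% of them and 7.11% of covered DRACH sites were within 100 nt of it. DRACH sites of the next class had a median of 400.5 nt, with 3.35% within 100 nt. The share of covered DRACH sites that were nearly complete was 0.322% under 50 nt, 2.18% from 50 nt, 4.57% from 100 nt and 7.99% from 200 to under 400 nt. It was lower again farther in, with 6.82% from 400 nt, 5.12% from 800 nt and 3.02% from 1600 nt on. The mean level of all covered DRACH sites in those bins had the same shape, with 29.1% under 50 nt, 52.1% from 200 to under 400 nt and 37.8% from 1600 nt on. The table gives no coding or untranslated parts, so the position relative to stop codons was not analysed here.

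**Figure D2:**
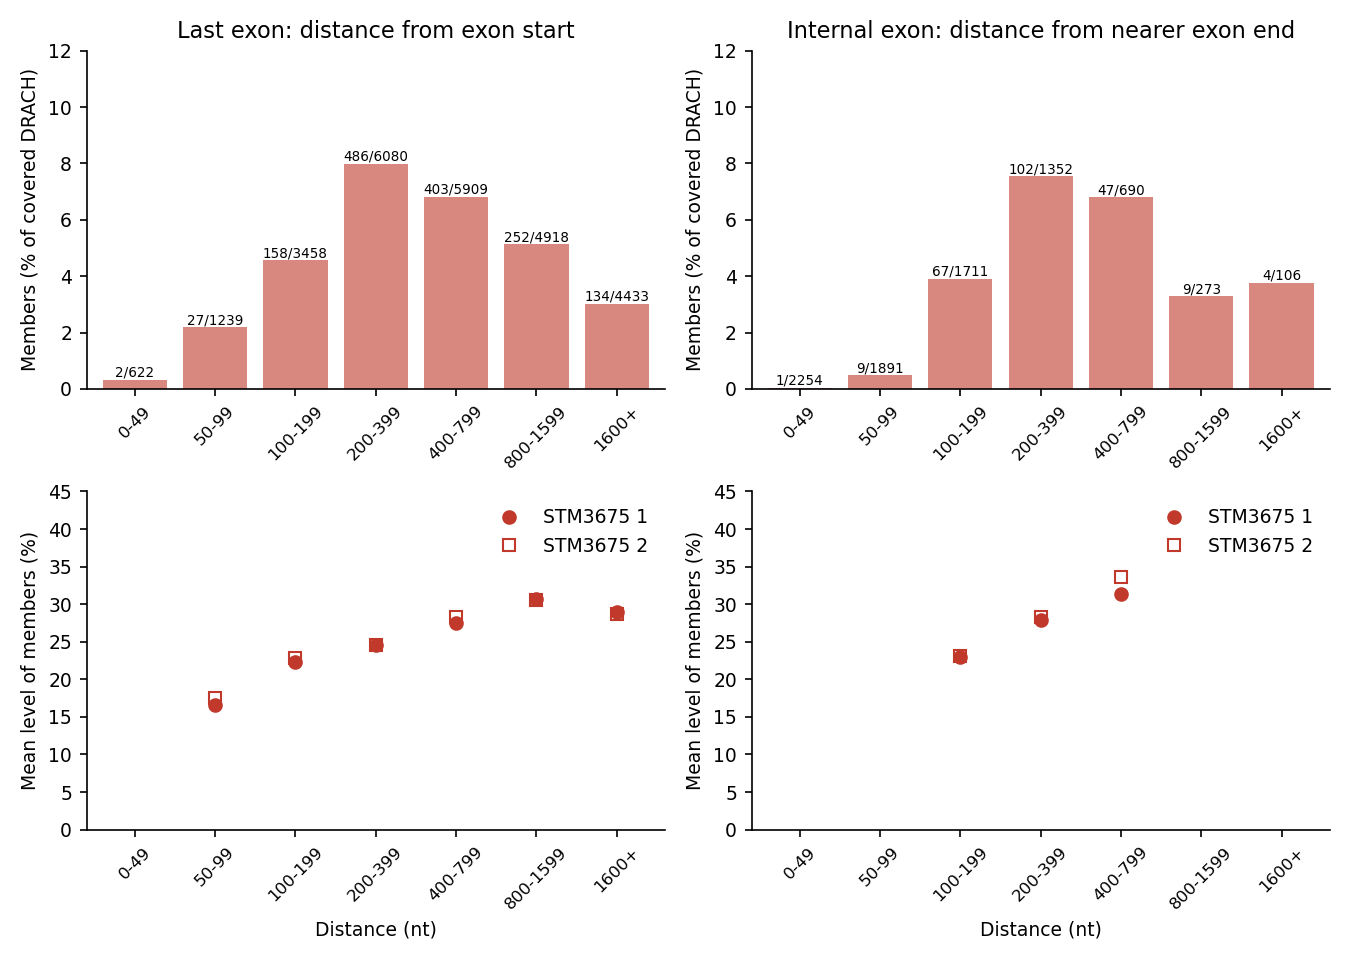
Upper row: share of covered DRACH sites that were nearly complete in all 12 DMSO libraries (vertical axis, %) by distance (horizontal axis, nt) from the exon start in last exons and from the nearer exon end in internal exons, with the numbers of sites above the bars. Lower row: mean level of those sites in each STM3675 library of CAOV3 (%), for bins with at least 20 sites; shares peak from 200 to under 400 nt, with 7.99% and 7.54%, and levels left by STM3675 are lowest in the bins nearest the junction.

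The sites tended to lie close together. Another nearly complete site lay within 100 nt of 354 of them (17.9%), against 12.4% of the next class and 6.13% of other covered DRACH sites. Within 500 nt the shares were 41.1%, 29.8% and 16.1%. Neighbours can share reads, so they are not independent measurements. With STM3675, sites with a neighbour within 100 nt averaged 26.8% and 27.1% in the 2 libraries, and sites with none within 500 nt 27.1% and 27.6%, a difference of the size of that between the libraries.

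The sites fell in 1316 genes, 15.6% of the 8444 genes with a covered site. Of these genes, 898 had 1 site, 281 had 2, 92 had 3 and 45 had 4 or more. Genes with a nearly complete site also had more covered DRACH sites to start with, a median of 8 against 3 in genes with none. Holding a nearly complete site thus went together with having more covered DRACH sites. What lay behind this was not tested. RefSeq (GRCh38.p14) holds 1314 of the 1316 gene names, all of them as protein-coding genes, as are nearly all genes the table names.

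TSPYL1, a single-exon gene of the nucleosome assembly protein family, had the most sites, 7, spread over 1038 nt. STM3675 left between 20.3% and 52.5% at its 7 sites in the 2 libraries, against 94.4% to 100% with DMSO in CAOV3. The highest was a GAACT site 1746 nt from the exon start, with 49.5% and 52.5%, against 98.3% and 97.4%. Another GAACT site 110 nt farther on kept 22.1% and 27.3%, against 100% and 94.4%, so the same context in one exon kept different levels.

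Next came CDC42EP3, an effector of the GTPase CDC42, TMEM203, the chromatin protein gene POGZ and COG8, a subunit of a Golgi tethering complex, with 6 sites each. Another 8 genes had 5 each, and the 3 of them with the most reads were ABCF1, an ABC protein of translation initiation, TMEM185B and DAG1, which encodes dystroglycan. In CDC42EP3 the residual level ran between 10.6% and 9.57% at 1 site, from 104 and 94 reads, and 50.6% and 62.9% at another, from 79 and 62 reads, with 93.1% and 95.7%, and 100% and 100%, with DMSO. In COG8 a site 391 nt into the last exon kept 84.2% and 76.1%, while another 50 nt upstream with the same context, GGACA, kept 47.4% and 51.5%; with DMSO they had 100% and 100%, and 98.4% and 94.5%. The range was narrower in TMEM203, with 19.9% to 41.5% at its 6 sites, against 96.8% to 100% with DMSO, and in DAG1, with 11.97% to 28.3% at its 5 sites, against 91.1% to 100%. All 46 sites of the 8 genes named here were called lower, under the test described further on. The same call was made at 35.2% of all tested sites. It was made at 99.9% of tested DRACH sites with 50% or more in CAOV3 with DMSO, so it is no trait of these genes.

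**Figure D3:**
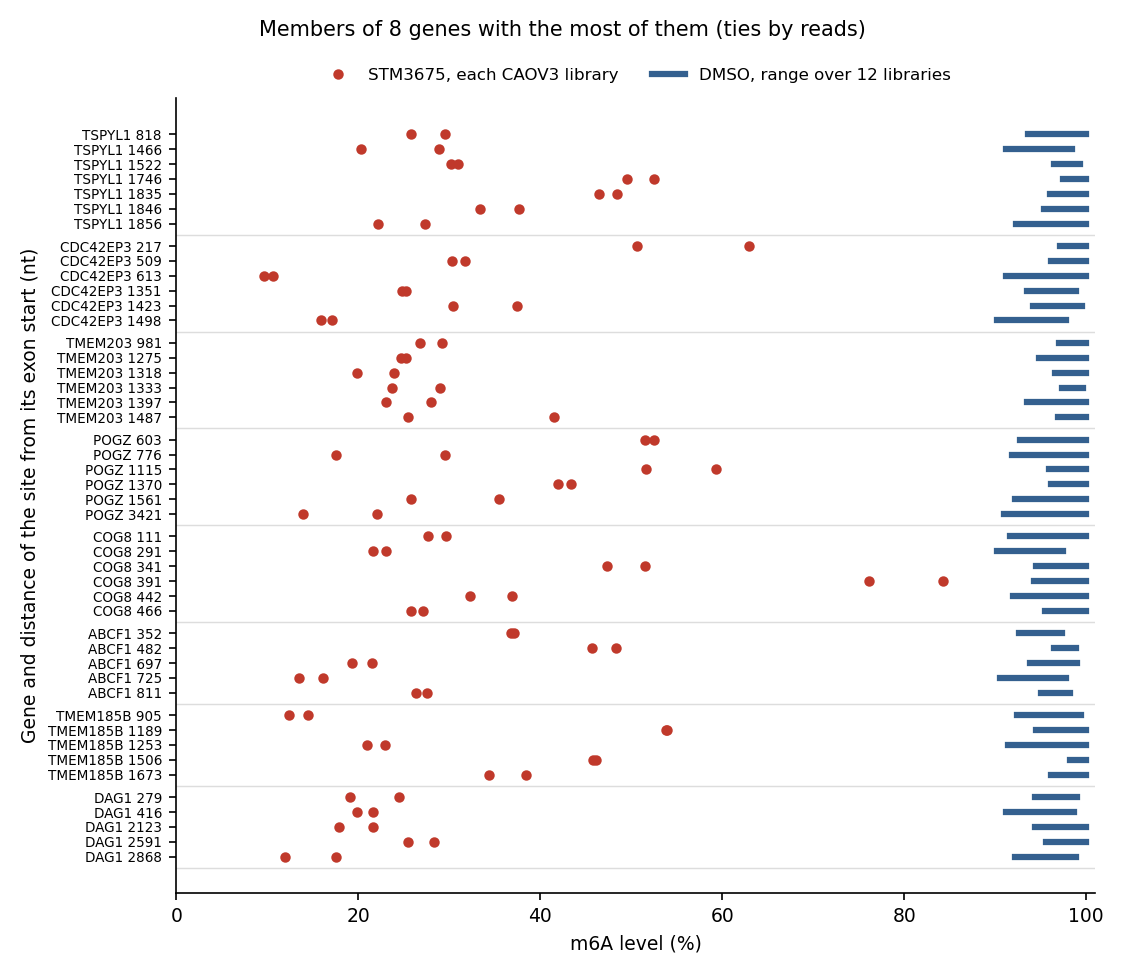
m6A level (horizontal axis, %) of each nearly complete site in 8 genes, those with 6 or 7 such sites and the 3 with the most reads of 8 genes with 5, ordered down the page by gene and by distance from the exon start (nt, beside the gene name). Red points are the 2 CAOV3 libraries with STM3675 and blue bars span the 12 DMSO libraries; STM3675 values of single genes run from 9.57% to 62.9% in CDC42EP3 while the blue bars start at 90.1% or higher.

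Among gene groups, 9 of 21 covered transcription factor and regulator genes of the immediate early and stress response (42.9%) held a nearly complete site, against 15.6% of all genes; they were CEBPB, DUSP6, FOSL2, IER2, IER5, JUN, JUNB, KLF10 and ZFP36L2. Nearly complete sites of any context came to 9.40% of the number of covered DRACH sites in that list, against 5.25% over all genes. This is called the share per DRACH site below, and its numerator includes the few nearly complete sites outside DRACH. Chromatin regulators had a site in 11 of 35 genes, ARID1A, CREBBP, KDM5B, KMT2B and SETD2 among them, and a share per DRACH site of 6.16%. Genes of double-stranded RNA sensing and interferon had 8 of 26, including ADAR, MAVS and TRIM25, and a share per DRACH site of 7.27%. Zinc finger genes had 34 of 160 and solute carriers 30 of 147, both by their symbols alone. Their shares per DRACH site were 7.97% and 5.14%. In proportion to all genes, the share per DRACH site was thus closer than the share over genes in each of these lists except the zinc finger genes. Splicing factors had 2 of 36 genes, SF3B3 and SRSF5, and a share per DRACH site of 2.16%, with 139 covered DRACH sites. Ribosomal protein symbols had 1 of 49, which was RPL7L1, a gene named for its likeness to one, and 1 of only 62 DRACH sites. None of 12 antigen presentation genes had a site, with 38 covered DRACH sites in all, too few to read a lower share from.

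Within the m6A machinery, 5 of 26 covered genes held 12 sites: the readers YTHDF1, YTHDF2 and YTHDF3, the writer subunit RBM15B and PRRC2A, a proposed reader. Of the 2 YTHDF2 sites, both in one internal exon of 1584 nt, the better read one kept 27.3% and 27.9%, against 98.3% and 99.4%. The best read of the 3 YTHDF3 sites kept 25.0% and 26.8%, against 99.1% and 97.6%, and the other two, in an internal exon, 34.3% and 38.7%, and 48.5% and 50.4%. Endoplasmic reticulum chaperone and export genes had 6 of 32 (CALR, DNAJC3, HSPA5, PDIA4, SEC61A1 and SSR2), and cell cycle genes and oncogenes 7 of 33 (BCL2L1, CENPF, E2F3, EGFR, MCL1, MDM2 and MYC). Ubiquitin-specific proteases had 5 of 40. The shares per DRACH site of these 4 lists were 6.78%, 5.78%, 7.19% and 2.40%, in the order given. In each list with a site, all sites tested were called lower with STM3675, as were 99.7% of the nearly complete sites over all genes; the median residual level of a list of at least 10 sites lay between 19.4% and 27.6%, against 24.3% over all.

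The 64 sites with no gene in the table were set beside RefSeq gene spans of the same build, which ignore strand and exons. All but 1 lay within such a span. Of these, 33 lay in a protein-coding gene, and some of the 33 also in a long non-coding RNA gene. Another 23 lay in a long non-coding RNA gene and no protein-coding gene, and 7 in a pseudogene and neither of the others. NORAD, a long non-coding RNA that binds PUMILIO proteins, held 2, with mean STM3675 levels of 26.0% and 17.9%. The span of XBP1, the transcription factor of the unfolded protein response, held 3, with 14.9% to 21.8%, that of TUG1 held 2, with 17.2% and 27.0%, and that of PEG10, a gene derived from a retrotransposon, held 3, with 18.6%, 38.1% and 47.7%.

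In CAOV3, STM3675 lowered nearly all of these sites, and the level left on them was higher than that left on less methylated sites. The mean level of the 1960 sites with 20 or more reads in all 4 CAOV3 libraries was 27.3% and 27.6% in the 2 STM3675 libraries, against 97.6% and 97.8% in the 2 DMSO libraries. That is 27.5% ± 0.213 against 97.7% ± 0.165 (SD, n = 2 each), a ratio of 0.281. An exact permutation test of 2 against 2 libraries cannot go below p = 0.33 and was not used. Per site, with the quasi-binomial logistic test adjusted by Benjamini-Hochberg over all 185923 tested sites, 1954 of the 1960 (99.7%) were called lower at an adjusted p under 0.05. The same call was made at 35.2% of all tested sites, 73.9% of tested DRACH sites and 99.9% of tested DRACH sites with 50% or more in CAOV3 with DMSO. The members' share is thus that of highly methylated sites in general, and DMSO values that entered the test had also chosen the sites. By the same test 0 of the 1960 were called higher, and 0 were higher at an unadjusted p under 0.05. Limma on transformed fractions also gave 0 of each, and over all tested sites 0.309% were called higher. The DMSO mean of 97.7%, which follows from the choice, left almost no room for a rise. These counts of 0 therefore say nothing about rises.

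Sites chosen in the other 5 lines alone, without CAOV3, gave nearly the same values: of 2006 tested, 1999 were called lower, with a mean of 27.3% ± 0.194 with STM3675 and 97.6% ± 0.183 with DMSO. That was nearly fixed in advance, since all 1960 sites are among these 2006. The other 46 kept 21.4% ± 0.628, against 91.8% ± 0.942 with DMSO, and 45 were called lower. A CAOV3 library with DMSO was under 90% at each of these 46, so their lower DMSO mean follows from that. Both STM3675 values were below both DMSO values at 1955 of the 1960 sites chosen over all lines, against 49.6% of all tested sites. That was no trait of these sites alone, since it held at 2321 of 2324 sites of the next class. It also held at 6139 of 6140 covered DRACH sites with a lowest DMSO level of 50% to under 80%. The median site kept 24.3%, with quartiles of 17.7% and 33.6%. Only 39 sites went below 10%, 646 (33.0%) kept 30% or more, 140 (7.14%) kept 50% or more and 7 kept 90% or more. The differences between sites repeated between the libraries, with a median absolute difference of 3.28 points against an SD over sites of 14.0 and 14.2 points; over sites, which are not independent replicates, Pearson's r was 0.897 and Spearman's rho 0.85, as a description.

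The next class, at 80% to under 90%, kept 17.9% ± 0.111 against 93.7% ± 0.219 with DMSO, a ratio of 0.191. Covered DRACH sites with a lowest DMSO level of 50% to under 80% kept 11.9% ± 0.159 against 80.2% ± 0.832, a ratio of 0.148. The residual level of the nearly complete sites was above that of both classes in each library, by more than the spread between libraries, and 7.14% of them kept 50% or more, against 1.12% of the next class and 0.0652% of the third. With 2 STM3675 libraries this difference between classes of sites was not tested. Reads that escaped conversion bear on the low end. For this, adenosines outside DRACH were read that did not reach the table's own limits on reads and level in CAOV3 with DMSO. They are listed because another line reached those limits, so they may not show the level of unconverted reads alone. Their median levels were 8.93% and 8.84% with STM3675, against 8.51% and 8.82% with DMSO. A residual level near 9% is thus close to what such sites showed.

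**Figure D4:**
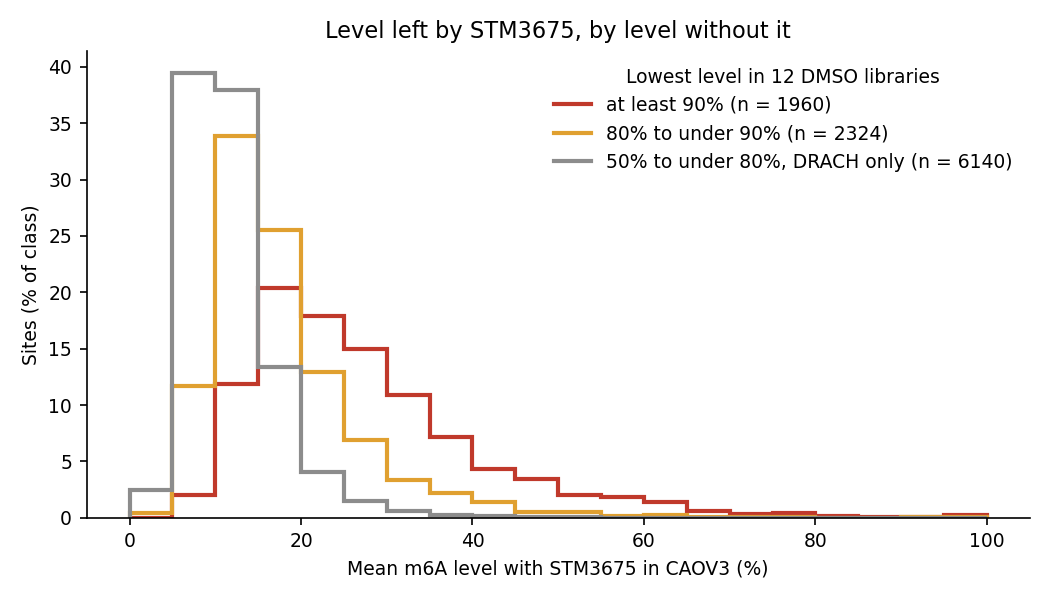
Distribution of the mean m6A level with STM3675 in CAOV3 (horizontal axis, %, in bins of 5 points) for sites whose lowest level in the 12 DMSO libraries was at least 90% (red, n = 1960), 80% to under 90% (orange, n = 2324) or 50% to under 80% within DRACH (grey, n = 6140), as the percentage of each class (vertical axis). Median levels are 24.3%, 15.6% and 10.8%.

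Within the nearly complete sites, the level left by STM3675 followed how close to complete a site was without it. Sites whose lowest DMSO value was 90% to under 92% kept 22.4% and 22.7% in the 2 libraries. The bins from 92%, 94% and 96% kept 25.5% and 26.1%, 29.1% and 29.2%, and 35.3% and 35.3%, and the 24 sites at 98% or more kept 42.5% and 41.8%. Without 2 of those 24 that were not called lower, the last bin kept 37.3% and 36.5%. The medians over sites were 19.8%, 23.0%, 26.9%, 31.7% and 34.3% in the 5 bins. Each step of the means, with or without those sites, was in the same direction in both libraries, and larger than the difference between them. Below the threshold the bins from 80% and 85% kept 16.2% and 16.3%, and 19.4% and 19.7%, so 90% marked no break. Over the 5 bins the median number of STM3675 reads, taking the shallower library of each site, also rose, with 141, 155.5, 171, 205.5 and 280.5. Over all of the sites depth ran the other way: those with under 50 reads in some DMSO library kept 29.8% ± 0.0486 and deeper ones 25.3% ± 0.369, against 97.9% and 97.5% with DMSO. The part of depth in these differences was not tested.

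**Figure D5:**
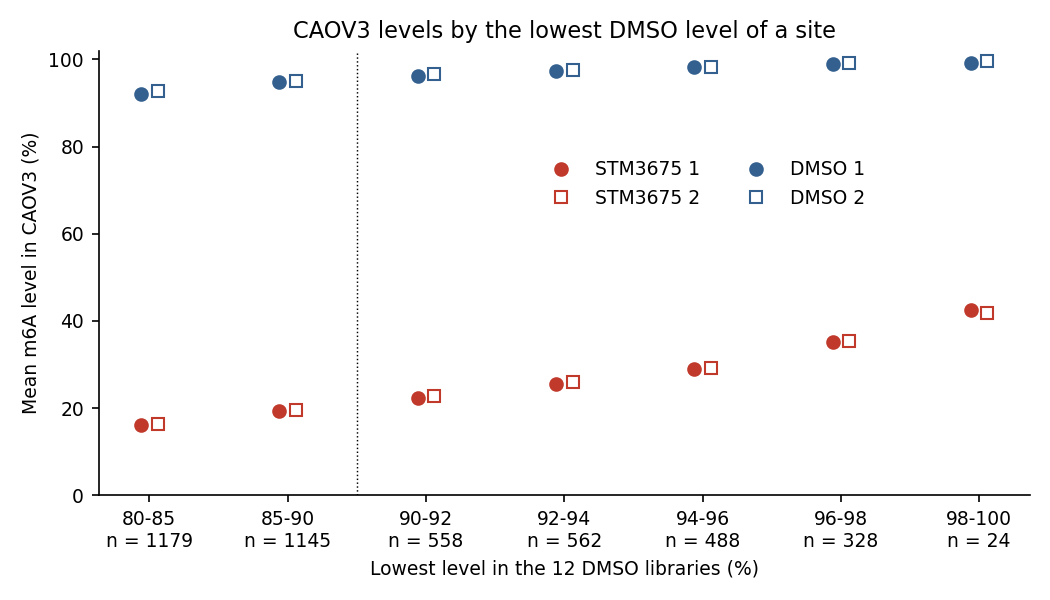
Mean m6A level in CAOV3 (vertical axis, %) of sites grouped by the lowest level in the 12 DMSO libraries (horizontal axis, %, with the number of sites), in each STM3675 library (red) and each DMSO library (blue). Right of the dotted line are the nearly complete sites, where STM3675 values run between 22.4% and 42.5%.

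The same comparison was made within exons. In 994 exons that held a nearly complete DRACH site and another covered DRACH site never under 50% with DMSO, the nearly complete sites averaged 27.1% and 27.4% in the 2 STM3675 libraries and the others 13.9% and 14.4%. The nearly complete sites were higher in both libraries in 843 exons (84.8%) and lower in both in 47 (4.73%).

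By exon, the residual level was 26.6% ± 0.158 in last exons (1474 sites), 27.9% ± 0.454 in internal exons (241), 31.7% ± 0.391 in single-exon genes (157) and 33.6% ± 0.243 in first exons (30), with DMSO means between 97.3% and 98.3%. Within last exons it was 16.6% and 17.6% for the 26 sites from 50 to under 100 nt from the exon start. It was 22.3% and 22.8% in the bin from 100 nt, 24.5% and 24.6% from 200 nt, 27.6% and 28.2% from 400 nt, and 30.6% and 30.5% from 800 nt. From 1600 nt on it was slightly lower, at 29.0% and 28.7%. In internal exons the bins from 100, 200 and 400 nt kept 23.0% and 23.1%, 27.8% and 28.3%, and 31.3% and 33.6%.

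By context, GGACA sites kept 29.3% ± 0.033, AGACT 28.8% ± 0.45, GGACT 28.3% ± 0.144, GGACC 25.7% ± 1.13, TGACT 25.3% ± 0.604, GAACT 24.6% ± 0.0884, AAACT 23.9% ± 1.53 and AGACA 23.3% ± 0.158 (SD, n = 2), with DMSO means between 97.3% and 97.9%. GGACT was above GAACT in both libraries by more than the spread between them, also within last and within internal exons. In single-exon genes the order was the opposite, with 34.5% and 35.2% at 31 GAACT sites and 30.2% and 30.5% at 60 GGACT sites. The 21 GGACG sites kept 32.2% ± 0.198. The range over contexts was smaller than the range over the bins of DMSO level.

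Among sites with a gene in the table and 50 or more reads in each CAOV3 library, the highest residual levels were in PANX1, RUNDC1, SLC33A1, ORAI2, SEPHS2, TAF5L, AHDC1, E2F3, OTUD1 and GNA12. At that depth 2 sites with no gene there stood higher, at 99.4% and 99.7%, and are described with the sites not called lower. PANX1, which encodes a channel that releases ATP from cells, kept 89.4% and 91.4% from 160 and 151 reads, against 100% in both DMSO libraries (adjusted p = 4.4e-05, quasi-binomial test, as for the p-values that follow). SLC33A1, an acetyl-CoA transporter of the endoplasmic reticulum, kept 79.0% and 80.8%, against 97.8% and 97.9% (adjusted p = 6.1e-12). A second site 125 nt away in the same first exon kept 71.6% and 72.6%, against 97.0% and 96.8%, so both of its nearly complete sites were in the high range.

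The best measured of the high sites was in SEPHS2, a selenophosphate synthetase encoded by a single exon. It kept 75.6% and 80.4% from 1646 and 1554 reads, against 99.5% and 99.4% from 1246 and 1213 reads (adjusted p = 2.3e-100). The 2 STM3675 values were apart by more than their binomial error, yet both were far above the mean of the nearly complete sites. A second SEPHS2 site, 639 nt away and also in GAACT, kept 38.0% and 50.4%. ORAI2, of the family of store-operated calcium channels, kept 75.5% and 80.7%, against 100% and 97.4%. TAF5L, a subunit of SAGA-type acetyltransferase complexes, kept 76.7% and 78.2%, against 98.4% and 100%. E2F3, a transcription factor of cell cycle entry, kept 69.1% and 73.0%, against 100% and 98.6%.

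OTUD1, a deubiquitinase gene of a single exon, kept 72.8% and 69.1%, against 100% in both DMSO libraries, and GNA12, a G protein alpha subunit, kept 68.5% and 73.4%, against 99.5% and 100%. AHDC1 and RUNDC1 differed between libraries, with 77.0% and 66.3% at the first and 92.6% and 81.3% at the second, against 97.9% and 98.1%, and 100% in both. All 10 were called lower, as were 99.7% of the nearly complete sites tested. The adjusted p-values of these 10, by the quasi-binomial test, were at most 0.00025. PIGM, an enzyme of GPI anchor synthesis, was higher still with 92.6% and 92.7%, against 100% in both (adjusted p = 0.012), but had 45 reads in 1 DMSO library.

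At the low end, by the same rule, were MRPL15, RAB23, KDM5B, HADH, HSPA5, CAMLG, THBS1, BLOC1S4, YWHAH and ZBTB14. MRPL15, a protein of the mitochondrial ribosome, kept 7.42% and 6.17% from 849 and 681 reads, against 94.6% and 96.2%. RAB23, a small GTPase, kept 6.67% and 8%, against 97.1% and 95.9%, and the histone demethylase gene KDM5B 6.67% and 8.21%, against 91.5% and 100%. These values are at or below the median of about 9% at the adenosines outside DRACH that are listed for another line. Those adenosines are no pure measure of unconverted reads, so the part of m6A in these values cannot be told. CAMLG, which takes part in insertion of tail-anchored membrane proteins, and YWHAH, a 14-3-3 protein, had 2405 to 3124 reads per STM3675 library and kept 7.82% and 7.94%, and 9.06% and 7.6%. With DMSO CAMLG had 94.5% and 94.0% and YWHAH 95.6% and 97.3%.

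HSPA5, the main chaperone of the endoplasmic reticulum lumen, had 3 sites within 34 nt of its last exon. The last of them, in GAACT, kept 8.47% and 7.28%, against 95.6% and 94.7%, the middle one, also in GAACT, kept 10% and 10.7%, and the first, in GGACT, kept 13.7% and 13.9% from 7254 and 6418 reads, against 97.6% in each DMSO library. In this cluster the order of the residual levels was that of the lowest DMSO level, which was 90.5% at the last site, 93.6% at the middle one and 94.1% at the first. That order did not hold in every gene. In DEGS1 a site with a lowest DMSO level of 93.21% kept 18.15% and 17.2%, and one with 93.13% kept 22.7% and 24.4%. How many clusters had that order was not counted. The first HSPA5 site was among the 6 with the highest lowest number of reads over the 12 DMSO libraries, and the others of these were also below the mean of the nearly complete sites: NCL, which encodes nucleolin, kept 13.6% and 13.1%, ATP6V0E1, a subunit of the proton-pumping ATPase, 17.2% and 16.9%, and the chaperone gene CALR 20.2% and 20.8%. With DMSO they had 93.4% and 95.1%, 98.3% and 98.5%, and 95.9% and 96.3%. The other two were both in CLPTM1L, with 13.8% to 14.3% with STM3675, against 92.9% to 95.9% with DMSO. Deep sites were not all low, since an ABCF1 site with 4613 and 4015 STM3675 reads, more than NCL had, kept 36.8% and 37.1%, against 95.6% and 95.9%.

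First-exon sites with the most reads were in SQLE, MCM3AP, SLC33A1 and PPP1R15B. SQLE, the squalene epoxidase of cholesterol synthesis, kept 25.6% and 24.6%, against 97.8% and 98.8%, and MCM3AP, of the mRNA export machinery, 38.1% and 42.2%, against 96.3% and 93.9%. PPP1R15B, a regulator of eIF2 alpha dephosphorylation, was lower, at 19.2% and 18.3%, against 97.6% and 97.4%. Of internal exons, DEGS1, a dihydroceramide desaturase, had 4 sites in one exon of 743 nt, and the 2 with the most reads lay 428 nt apart. The one 170 nt from the exon start kept 22.7% and 24.4%, against 98.7% and 99.0%, and the one 144 nt from the exon end kept 34.4% and 37.4%, against 98.1% and 98.7%. VANGL1, of planar cell polarity, and the lactate transporter gene SLC16A1 kept 33.7% and 36.2%, and 33.1% and 35.5%, against 98.2% and 98.7%, and 99.0% and 99.1%.

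Of the 6 tested sites that were not called lower, 5 had no gene in the table and stayed at 99.3% or more with STM3675. The site at position 64101579 of chromosome 3, in AAACC, had 99.3% and 99.6% with STM3675 from 1693 and 1149 reads, against 98.6% and 99.3% with DMSO (adjusted p = 0.6), and at least 98.6% in every line. It was the only AAACC site of 129 covered ones to qualify. The chromosome 1 pair, 4 nt apart, had 99.4% to 100% with STM3675 and 100% with DMSO, and the chromosome 2 pair, 3 nt apart, had 100% at each, against 90.5% and 100% with DMSO. Both sites of the chromosome 2 pair have the same read numbers in each CAOV3 library. Of these 5, 3 are outside DRACH. Whether the A reads of these 5 sites stand for m6A was not tested. The sixth site, in the zinc finger gene ZFP41, had 74.6% and 77.8% from 67 and 45 reads, against 92% and 94.3% from 25 and 35 reads (adjusted p = 0.054). In the simulated data, 92% of 100 sites at 90% or more lowered to 0.7 of their level were recovered by this test, and all of 100 lowered to 0.3. Those data had the common dispersion that the test assumes, and larger falls than ZFP41 showed. They therefore do not tell how readily a fall like that of ZFP41 would be called.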

How the data were processed

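Fragmented polyadenylated RNA was treated with glyoxal and nitrite, per the labels' protocols. The submitters' processing notes name cutadapt, STAR and GRCh38; tool versions and the caller of sites are not given. The authors deposited, per site, library and line, the count of A and G reads and the fraction of them that is A. Their product was whole within 1e-06, which recovered A reads. D and T in column names were taken to stand for DMSO and treated; 8 value columns were not used. Of 2451078 rows, 469 sites are listed for several genes; each entered once. The 5 bases of all 3309 sites inside RefSeq promoter windows on GRCh38.p14 matched. Spike-in probes were not analysed here.

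Every site with 20 reads in each CAOV3 library was tested with a quasi-binomial logistic model in R 4.3.3, the dispersion moderated by squeezeVar of limma 3.58.1 and floored at 1, with F tests adjusted by the Benjamini-Hochberg method at 0.05. Moderation gave every site a common dispersion of 1.67, so a site more variable than that is called too readily. On simulated data, drawn with that same dispersion, 778 and 685 of 120420 unchanged sites were called lower and higher. Shares and means used Python 3.11.15 and pandas 2.3.3. No libraries were merged, since read counts of each pair differed beyond counting error (chi-square over degrees of freedom 1.58 to 3.73). Sites and gene lists were chosen with earlier results of these data known. Named sites followed a rule: highest and lowest residual level at 50 reads or more in each CAOV3 library, genes with most sites, most reads by exon type, context and list, and sites beside the threshold; exceptions are said to be so. The sites not called lower, those at 90% or more with STM3675 and those with no gene in the table were named in addition, after their values were seen. The result of a further gene list is not reported here. Intervals of reads cover counting error only.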

Additional observations from a re-analysis of the deposited data

How the results depend on the processing

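The number of sites was 3148 with a threshold of 85%, 586 with 95% and 1007 with 50 reads in every DMSO library, of which 3098, 578 and 1005 were called lower with STM3675. Over the same settings the mean STM3675 level was 24.6%, 33.8% and 25.3%, and its ratio to DMSO 0.254, 0.342 and 0.26. Pooling reads gave 24.1% and 0.247, and 50 reads in every CAOV3 library 26.3% and 0.27. Removing the level of the adenosines outside DRACH listed for another line, as a stand-in for unconverted reads, gave 20.4% and 0.2095. Last-exon sites alone gave 26.6%. The DRACH share was 98.6% at 95% and the last-exon share 78.05% with 50 reads. The cause of these shifts was not tested. Leaving out each CAOV3 library in turn left 1943 to 1950 sites called lower; these fits have 1 library in an arm, which is assumed to vary like the pair of the other arm, with a dispersion moderated over all sites. With the replicate number as a block, 1944 were; the numbers share only a number (r = -0.00253 over tested sites between the 2 treatments), and over all tested sites the block gave 46515 lower calls, against 65503 without it. limma gave 1955. Leaving out 1 line other than CAOV3, which was added after the data were seen, gave 2139 to 2391 sites. Levels from 20 reads are coarse, which limits what can be said of sites near 90% or near the level of unconverted reads.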
